A study of Mus musculus with 54 samples.

Results

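Expression of the sodium pump's accessory genes was examined in 3 brain regions of mice with a gene trap in Mbd5. The 7 genes considered, out of 47069 genes in the count table, encode 3 β subunits (Atp1b1, Atp1b2 and Atp1b3) and 4 FXYD regulators (Fxyd1, Fxyd2, Fxyd6 and Fxyd7). They were taken by gene symbol, with Ensembl identifiers matched to symbols through a GRCm38 annotation. RNA-seq libraries came from cerebellum, cortex and striatum of 10 Mbd5+/GT mice (5 females and 5 males) and 8 WT mice (5 females and 3 males), giving 54 libraries with 1 per mouse and region. All mice were 8 weeks old and on a C57BL/6 background. Mbd5+/GT mice carry 1 copy of a gene trap cassette inserted in an Mbd5 intron, which makes that copy hypomorphic, and WT mice carry no trap. The mice came from 3 litters, of which litter 1 (3 Mbd5+/GT and 3 WT) held females only, litter 2 (4 Mbd5+/GT and 1 WT) held males only and litter 3 (3 Mbd5+/GT and 4 WT) held both. The striatum libraries of 2 WT mice were labelled as repeats.

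The sodium pump, or Na,K-ATPase, moves sodium out of the cell and potassium in at the expense of ATP, and neurons use it to restore their ion gradients after firing. A catalytic α subunit carries out the transport, and a glycosylated β subunit is needed for the pump to fold, reach the plasma membrane and bind potassium with its usual affinity. FXYD proteins are small single-pass membrane proteins, named after a shared sequence motif, that associate with the pump and change its affinity for ions according to tissue.

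Among the β subunits, Atp1b1 (ENSMUSG00000026576, chromosome 1, 164437109 to 164458355, minus strand) encodes β1, the common form in neurons. Atp1b2 (ENSMUSG00000041329, chromosome 11, 69599736 to 69605942, minus strand) encodes β2, which was first known as an adhesion molecule on glia. Atp1b3 (ENSMUSG00000032412, chromosome 9, 96332655 to 96364442, minus strand) encodes β3, which is found in many tissues. Atp1b1 shares 575 exon bases, 18.7% of its exons, with Nme7 on the opposite strand, and the strand setting of the counting is not given in the sources used here, so part of its count may belong to Nme7.

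The FXYD genes considered here lie in pairs, and on chromosome 7 other FXYD genes, Fxyd5 and Fxyd3, lie close by. Fxyd7 (ENSMUSG00000036578, 31042513 to 31051467), a brain regulator, and Fxyd1 (ENSMUSG00000036570, 31051678 to 31057199), which encodes phospholemman, are neighbours on the minus strand of chromosome 7 with 210 bases between them. Fxyd6 (ENSMUSG00000066705, 45370185 to 45396159), which encodes phosphohippolin, and Fxyd2 (ENSMUSG00000059412, 45399669 to 45410278), which encodes the γ subunit best known from kidney, are neighbours on the plus strand of chromosome 9 with 3509 bases between them. All positions are on GRCm38.

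RefSeq promoter windows (GRCm38.p6, from 250 bases before to 50 bases after an annotated start) were matched for 4 of the 7 genes. Those of Atp1b1, the most abundant of the 7, and of Fxyd1, whose level differed between every pair of regions, are printed to show how unlike they are. Capitals mark motifs, searched on both strands. The GC box was spelled GGGCGG. The second motif is known by its letters as the CCAAT box. For the TATA box the letters TATAAA were searched.
The Atp1b1 window lies at chr1:164458306-164458605 and the Fxyd1 window at chr7:31054804-31055103, both on the minus strand and read 5′ to 3′ along it. The Atp1b1 window spans the 5′ end of its gene (164458355). The Fxyd1 window belongs to a start inside its gene (31051678 to 31057199).
Atp1b1: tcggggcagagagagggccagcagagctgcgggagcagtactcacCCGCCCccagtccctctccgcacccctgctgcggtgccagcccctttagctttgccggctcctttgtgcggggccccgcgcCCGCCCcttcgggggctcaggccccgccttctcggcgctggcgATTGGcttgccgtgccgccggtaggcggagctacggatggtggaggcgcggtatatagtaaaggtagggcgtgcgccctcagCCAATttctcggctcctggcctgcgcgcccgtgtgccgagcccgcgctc
Fxyd1: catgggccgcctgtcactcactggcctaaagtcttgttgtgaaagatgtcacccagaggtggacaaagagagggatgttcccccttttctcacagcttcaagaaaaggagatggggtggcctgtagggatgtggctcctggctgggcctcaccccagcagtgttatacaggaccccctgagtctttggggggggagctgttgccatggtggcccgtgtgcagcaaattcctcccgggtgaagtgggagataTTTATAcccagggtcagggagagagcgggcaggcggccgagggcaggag

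The Atp1b1 window was 71% G and C, with 2 GC boxes, 2 CCAAT boxes, no run of the letters TATAAA and 31 CpG sites. The Fxyd1 window was 58.7% G and C, with 1 match to the TATA box letters, neither of the other motifs and 6 CpG sites. That match is on the opposite strand, where it reads TTTATA in the printed window, and it lies after the annotated start. For comparison, the median of 32851 windows of the same length was 52.7% G and C. A GC box was found in 35.7% of them, a CCAAT box in 37.4% and a TATA box in 13.6%. Of the Atp1b3 starts, 1 had 6 GC boxes and the other had none of the motifs, and the Fxyd6 window had 1 CCAAT box only. A match is a run of letters and not a measured site.

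Libraries held between 25295973 and 49027399 counted reads. Mbd5 itself was lower in Mbd5+/GT mice by edgeR with Benjamini-Hochberg adjustment. Its log2 fold change was -0.34 in cerebellum (adjusted p = 0.0091, edgeR), -0.49 in cortex (adjusted p = 0.00012) and -0.51 in striatum (adjusted p = 9.4e-05). Each region was checked against marker genes of its main neurons, and 7 libraries had a summed marker level (counts scaled to library size, CPM) below 50% of the median of their region. In the cerebellum library of 1 Mbd5+/GT mouse (mouse A), 6 granule cell markers summed to 116 CPM and Purkinje cell markers to 173, against medians of 4897 and 6503 for its group. That library also had 594 CPM of Hox genes, which mark hindbrain and spinal cord, against a group median of 0.62, and 31524 CPM of oligodendrocyte markers. It goes against its label, and the cerebellum library of a WT mouse (mouse B) does so in part, with granule cell markers at 1633 CPM and Hox genes at 172. In striatum, 7 markers of striatal neurons summed to between 128 and 1107 CPM in 5 libraries (mice A and B, another WT and 2 other Mbd5+/GT mice), against 1505 to 5841 in the 13 other libraries. Cortical neuron markers were detected in every striatum library (257 to 1577 CPM) and striatal markers in every cortex library (113 to 1282). Results are therefore given with all libraries and, where they differ, without these 7. In bulk tissue fewer cells of a type and less RNA per cell cannot be told apart.

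Atp1b1 had the highest level per exon length of the 7 genes in every region. On the RPKM scale, which is CPM per kilobase of exon, its mean was 483 ± 63 (SD, n = 18) in cerebellum, 481 ± 38 in cortex and 368 ± 67 in striatum. Atp1b2 came next, at 295 ± 28, 103 ± 13 and 101 ± 16. Atp1b3 was at 78.3 ± 8.4, 49.4 ± 4.6 and 60.0 ± 7.9. The FXYD genes followed in the same order in cortex and striatum and in another order in cerebellum. In cerebellum Fxyd1 (22.3 ± 6.2) and Fxyd6 (20.5 ± 4.2) did not differ beyond their spread, and Fxyd7 averaged 13.9 ± 14.8, or 9.69 ± 3.16 (SD, n = 16) without the low-marker libraries. In cortex the mean of Fxyd7 (70.8 ± 19.2) was above that of Atp1b3, with overlapping spreads, followed by Fxyd6 (21.0 ± 4.6) and Fxyd1 (9.46 ± 1.67). In striatum Fxyd7 (81.2 ± 29.2) overlapped with both Atp1b2 and Atp1b3 in its spread, and Fxyd6 (26.9 ± 10.7) and Fxyd1 (15.5 ± 3.6) came below with overlapping spreads. Fxyd2 was the lowest in every region, at 0.061 ± 0.053, 0.457 ± 0.104 and 1.501 ± 0.633 RPKM. The annotated exons of Fxyd1 add up to 2186 bases but its longest transcript has 668, and with lengths of the longest transcript Fxyd1 averaged 73.1, 31.0 and 50.8 RPKM in the 3 regions. Its place moved above Fxyd6 (46.7) in striatum on that scale, and in cerebellum its mean stood further above that of Fxyd6 (35.6). The order of the β subunits stayed as given.

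**Figure D1:**
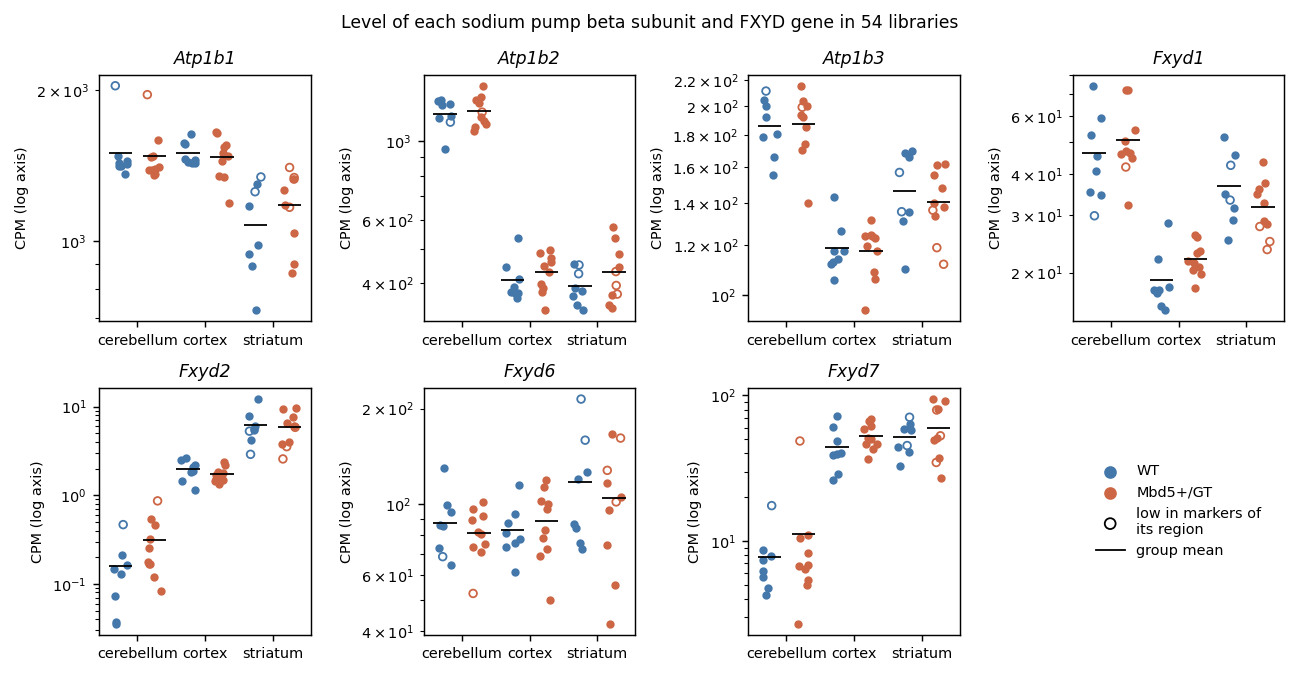
Level of each gene in CPM on a log axis in every library, by region, with WT in blue and Mbd5+/GT in orange. Horizontal lines are group means, and open circles are the 7 libraries low in markers of their region, 2 of which carry the highest Atp1b1 (1959 and 2041) and Fxyd7 (48.6 and 17.5) values in cerebellum.

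Regions were compared with edgeR over all 54 libraries, averaging over genotypes, to ask how the set of pump regulators differs between parts of the brain. Between cerebellum and cortex, 5 of the 7 genes passed an adjusted p of 0.05, where 68.9% of all 20477 genes tested did, and 4 also changed by more than 1 on the log2 scale, where 25.5% of all genes did. Between cerebellum and striatum all 7 passed (75.2% of all genes), 3 of them with a log2 change over 1 (29.4%). Between cortex and striatum 5 passed (58.9%), 1 of them with a log2 change over 1 (9.12%). The median of the absolute log2 change over the 7 genes was 1.20, 0.50 and 0.34 in these contrasts, beside 0.46, 0.57 and 0.34 over all genes tested.

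Atp1b2 was the β subunit that set cerebellum apart. Its level ran from 949 through a median of 1190 to 1430 CPM in cerebellum, from 336 through 403 to 535 in cortex and from 336 through 391 to 573 in striatum. Cerebellum did not overlap with either forebrain region, and all 18 mice had more Atp1b2 in cerebellum than in both. The difference was 2.78-fold against cortex (log2 1.48 ± 0.06 SE, adjusted p = 6.2e-27) and 2.91-fold against striatum (log2 1.54 ± 0.06 SE, adjusted p = 1.1e-27), both by edgeR with Benjamini-Hochberg adjustment. Cortex and striatum differed by a log2 value of 0.06 ± 0.06 (SE, adjusted p = 0.39, edgeR with Benjamini-Hochberg adjustment).

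Atp1b1 showed a different order. Its lowest, median and highest levels were 1357, 1418 and 2041 CPM in cerebellum, 1190, 1467 and 1650 in cortex and 727, 1177 and 1402 in striatum. Striatum was the low region, with less Atp1b1 than cerebellum in 18 of 18 mice and less than cortex in 17 of 18. The log2 differences were 0.39 ± 0.07 (SE) for cerebellum against striatum and 0.43 ± 0.07 for cortex against striatum (edgeR with Benjamini-Hochberg adjustment, adjusted p = 1.2e-06 and 7.0e-07). Cerebellum and cortex were not distinguished (log2 -0.04 ± 0.07 SE, adjusted p = 0.62, edgeR with Benjamini-Hochberg adjustment). Without the low-marker libraries the cerebellum range narrowed to 1357 to 1591 CPM and no longer overlapped with that of striatum, 727 to 1331.

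Atp1b3 was graded over all 3 regions. Levels of 140, 193 and 216 CPM (lowest, median and highest) were found in cerebellum, 94.5, 118 and 143 in cortex and 110, 139 and 170 in striatum. The ranges overlapped throughout, yet cerebellum was above cortex in 18 of 18 mice and above striatum in 17. By edgeR with Benjamini-Hochberg adjustment the log2 differences were 0.62 ± 0.06 (SE) for cerebellum against cortex (adjusted p = 4.1e-14), 0.37 ± 0.06 for cerebellum against striatum (adjusted p = 6.0e-08) and -0.24 ± 0.06 for cortex against striatum (adjusted p = 0.00024).

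With these differences, Atp1b2 held a larger part of the β transcripts in cerebellum than in the other regions. The number of Atp1b2 reads per Atp1b1 read was 0.82 ± 0.12 (SD, n = 18) in cerebellum, with a range of 0.55 to 0.97, against 0.23 to 0.34 in cortex and 0.26 to 0.53 in striatum. Cerebellum did not overlap with the other regions in this ratio, while cortex and striatum overlapped. Scaled by exon length, Atp1b2 made up 34.6% ± 3.3 (SD, n = 18) of the summed β level in cerebellum, 16.2% ± 1.4 in cortex and 19.3% ± 2.7 in striatum. Atp1b1 made up 56.3%, 75.9% and 69.2%, and Atp1b3 the remaining 9.17%, 7.83% and 11.5%. With lengths of the longest transcript the Atp1b2 shares were 32.5%, 15.0% and 17.9%.

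**Figure D2:**
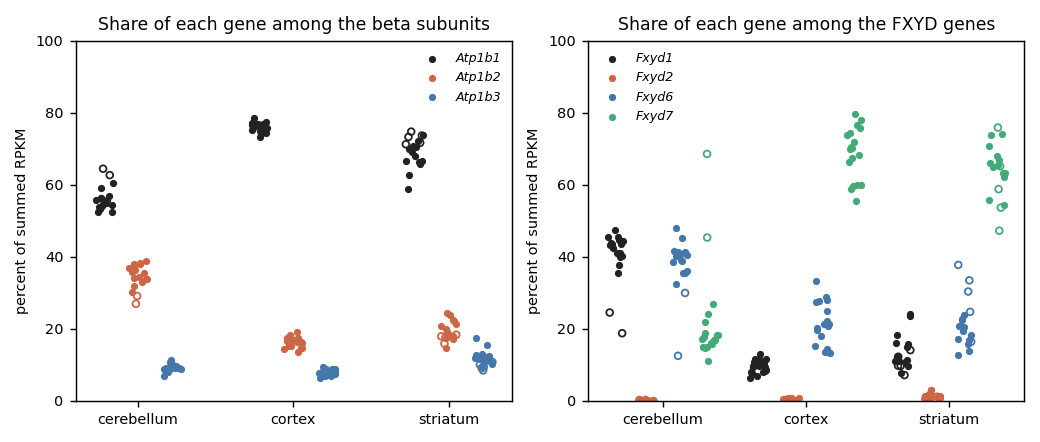
Share of each gene in the summed RPKM of the β subunits (left) and of the FXYD genes (right), with 1 point per library and open circles for the 7 low-marker libraries. Atp1b2 held 34.6% of the β total in cerebellum against 16.2% in cortex, and Fxyd7 held 68.7% of the FXYD total in cortex against 22.1% in cerebellum.

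Fxyd7 was lower in cerebellum than in both forebrain regions. In cerebellum it ran from 2.71 through a median of 6.79 to 48.6 CPM, where the next-highest libraries had 17.5 and 10.95. Cortex had 26.2, 47.4 and 71.8 CPM (lowest, median and highest), and striatum 27.0, 52.0 and 94.4. The library at 48.6 CPM is the one of mouse A that goes against its label, the one at 17.5 CPM is that of mouse B, and without them cerebellum reached 10.95 CPM at most and did not overlap with either region. With all libraries the log2 difference was -2.42 ± 0.24 (SE) against cortex and -2.59 ± 0.24 against striatum, and without the 7 low-marker libraries it was -2.91 ± 0.17 and -3.09 ± 0.18 (edgeR with Benjamini-Hochberg adjustment, adjusted p of 7.5e-13 and 9.2e-14 with all libraries, and 8.6e-20 and 5.0e-20 without). Cortex and striatum differed by a log2 value of -0.17 ± 0.23 (SE, adjusted p = 0.54, edgeR with Benjamini-Hochberg adjustment).

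Fxyd1 took the opposite direction. Its levels were 29.8, 46.1 and 74.3 CPM (lowest, median and highest) in cerebellum, 15.3, 20.5 and 28.3 in cortex and 23.5, 32.9 and 51.9 in striatum. Cerebellum lay above cortex without overlap and in all 18 mice, and striatum lay between them, overlapping with both. The log2 difference was 1.20 ± 0.11 (SE) for cerebellum against cortex, 0.50 ± 0.11 for cerebellum against striatum and -0.70 ± 0.11 for cortex against striatum (edgeR with Benjamini-Hochberg adjustment, adjusted p = 1.3e-14, 2.9e-05 and 2.9e-07). In WT libraries alone the difference between cerebellum and striatum was 0.30 ± 0.18 (SE) and did not pass (edgeR with Benjamini-Hochberg adjustment, adjusted p = 0.14). The highest striatum value, 51.9 CPM in a WT mouse, came with the highest sum of 7 choroid plexus markers there, 6202 CPM against a WT striatum median of 82.0. In cerebellum the highest value, 74.3 CPM in a WT mouse, came with 41.5 CPM of those markers. The part of choroid plexus in the Fxyd1 values was not tested.

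Fxyd2 was near the detection limit in cerebellum and highest in striatum. It had 1 to 27 reads per library in cerebellum, which is 0.04 to 0.86 CPM with a median of 0.17. Cortex had 1.15, 1.79 and 2.64 CPM (lowest, median and highest), and striatum 2.57, 5.73 and 12.2. Cerebellum did not overlap with the forebrain regions, and striatum was above cortex in every mouse, with ranges that separated only without the low-marker libraries (striatum from 3.77). The log2 differences were -3.05 ± 0.24 (SE) for cerebellum against cortex, -4.72 ± 0.25 for cerebellum against striatum and -1.67 ± 0.21 for cortex against striatum (edgeR with Benjamini-Hochberg adjustment, adjusted p = 3.6e-16, 4.3e-23 and 4.8e-09). Striatum libraries rich in markers of striatal neurons held the highest Fxyd2 values. The 3 libraries with the largest marker sums (5841, 5683 and 3878 CPM) had 12.2, 9.32 and 9.61 CPM of Fxyd2, and the 5 low-marker libraries had 2.57 to 5.84. The part of dissection in these values was not tested.

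Fxyd6 had wide ranges in every region. Its lowest, median and highest levels were 52.4, 83.4 and 130 CPM in cerebellum, 49.99, 82.0 and 119 in cortex and 42.2, 104 and 214 in striatum, and all ranges overlapped. The log2 difference was -0.07 ± 0.14 (SE) for cerebellum against cortex, -0.40 ± 0.14 for cerebellum against striatum and -0.34 ± 0.14 for cortex against striatum (edgeR with Benjamini-Hochberg adjustment, adjusted p = 0.68, 0.0089 and 0.036). Those calls rested on the low-marker libraries. In the 5 of striatum Fxyd6 ran from 102 to 214 CPM, against 42.2 to 166 in the other 13, and without all 7 the differences against striatum were -0.15 ± 0.14 for cerebellum and -0.12 ± 0.13 for cortex (edgeR with Benjamini-Hochberg adjustment, adjusted p = 0.32 and 0.45). With the mouse as a paired term the difference between cortex and striatum was -0.31 ± 0.15 (SE, adjusted p = 0.084, edgeR with Benjamini-Hochberg adjustment).

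**Figure D3:**
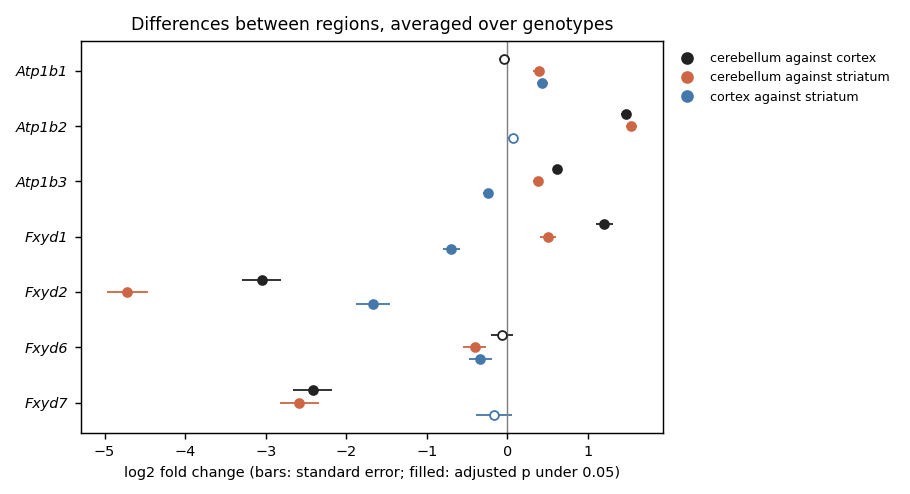
Log2 fold change of each gene in the 3 contrasts between regions, averaged over genotypes, with standard errors, and filled points where the adjusted p was under 0.05. Fxyd2 and Fxyd7 lie far below 0 in both cerebellum contrasts (-3.05 and -4.72, -2.42 and -2.59) and Atp1b2 lies above (1.48 and 1.54).

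**Figure D4:**
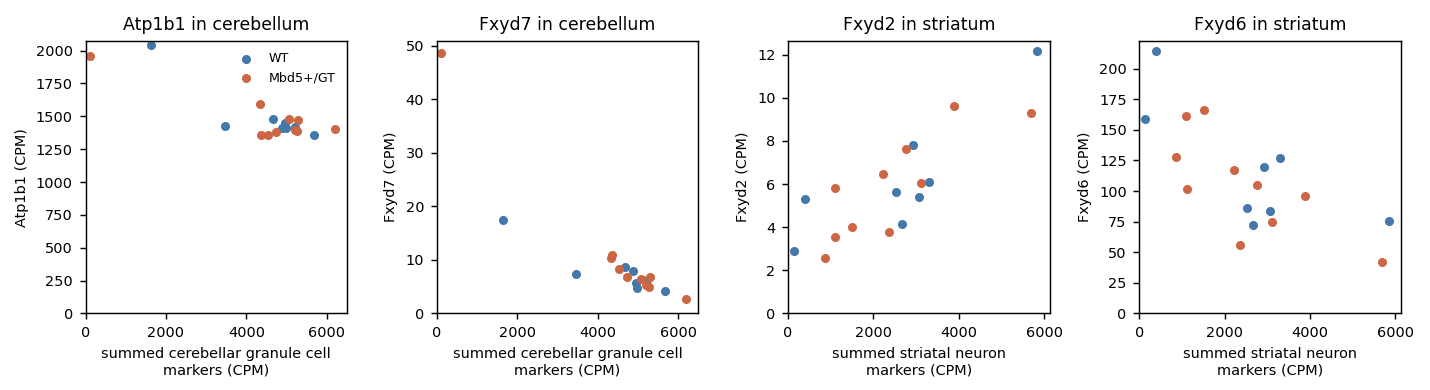
Level of 4 genes against the summed markers of the main neurons of the region (CPM, linear axes), with 1 point per library. In cerebellum the 2 libraries with the lowest granule cell markers (116 and 1633 CPM) have the highest Atp1b1 and Fxyd7, and in striatum the libraries with the most striatal neuron markers have the most Fxyd2, up to 12.2 CPM.

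Summed over the FXYD genes and scaled by exon length, Fxyd7 held 68.7% ± 7.3 (SD, n = 18) of the total in cortex and 63.8% ± 7.7 in striatum. In cerebellum it held 22.1% ± 13.8, or 17.7% ± 3.8 (SD, n = 16) without the low-marker libraries. Fxyd1 and Fxyd6 held 40.1% ± 7.4 and 37.7% ± 7.6 there, against 9.51% and 21.3% in cortex. These shares depend on the length chosen. With longest transcripts, Fxyd1 held 59.3% in cerebellum and Fxyd7 50.2% in cortex.

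Mbd5+/GT and WT mice were then compared within each region. None of the 7 genes passed an adjusted p of 0.05 in any region by edgeR with surrogate variables. Over all genes tested, 0.00551% passed in cerebellum, 0.0107% in cortex and 0.00539% in striatum. At an unadjusted p under 0.05, 2 of the 7 were found in cerebellum (2.75% of all genes), 2 in cortex (8.47%) and 0 in striatum (7.44%). DESeq2 gave 1 of 7 at an adjusted p under 0.05 in cortex, Fxyd7, and 0 of 7 in the other regions. The shares of all genes above are those of edgeR. No DESeq2 share is given here, so the DESeq2 call cannot be set against them.

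The 3 β subunits had log2 fold changes of at most 0.11 in size between genotypes. Atp1b1 averaged 1478 ± 184 CPM (SD, n = 10) in Mbd5+/GT and 1500 ± 221 (SD, n = 8) in WT cerebellum, 1469 ± 143 and 1497 ± 81 in cortex and 1181 ± 191 and 1076 ± 221 in striatum. Its log2 fold changes were -0.02 ± 0.05 (SE), -0.05 ± 0.04 and 0.11 ± 0.06. Those of Atp1b2 were 0.01 ± 0.06, 0.05 ± 0.06 and 0.11 ± 0.09, and those of Atp1b3 -0.02 ± 0.04, -0.02 ± 0.04 and -0.05 ± 0.07. The lowest adjusted p of these 9 tests was 0.71 (edgeR with Benjamini-Hochberg adjustment). All genotype ranges of the β subunits overlapped. Within litters 1, 2 and 3 the difference of mean log2 CPM for Atp1b1 in striatum was 0.13, 0.29 and 0.18. For Atp1b2 it was 0.21, 0.11 and 0.01 in cortex and 0.25, 0.11 and 0.0034 in striatum. Mbd5+/GT mice thus had the higher mean in each litter in these 3 of 9 cases. They had the lower mean in each litter for Atp1b1 in cortex (-0.02, -0.15 and -0.01) and Atp1b3 in cerebellum (-0.04, -0.01 and -0.04). In the remaining cases the sign was mixed. Litter 2 has 1 WT mouse.

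In cortex the lowest p-values among the 7 belonged to the chromosome 7 neighbours. Fxyd7 ran from 36.6 through a median of 50.6 to 68.3 CPM in Mbd5+/GT and from 26.2 through 40.0 to 71.8 in WT mice, and Fxyd1 from 17.97 through 21.5 to 26.1 and from 15.3 through 17.7 to 28.3. The genotypes overlapped, the highest value of both genes being in the same WT mouse, while 8 of 10 Mbd5+/GT libraries lay above the WT mean for Fxyd7 and 9 of 10 for Fxyd1. The log2 fold change was 0.20 ± 0.05 (SE) for Fxyd7 and 0.23 ± 0.06 for Fxyd1, with adjusted p of 0.22 and 0.30 by edgeR with Benjamini-Hochberg adjustment. By DESeq2 they were 0.20 and 0.23, with adjusted p of 0.034 and 0.072.

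The differences within litters did not point one way for both genes. For Fxyd7 in cortex the difference of mean log2 CPM was 0.41 in litter 1, 0.42 in litter 2 and 0.17 in litter 3. For Fxyd1 it was 0.31, -0.03 and 0.24, where litter 2 has 1 WT mouse. Without surrogate variables the fold changes were 0.25 ± 0.17 (SE) for Fxyd7 and 0.21 ± 0.11 for Fxyd1, and neither had an unadjusted p under 0.05. Among the marker lists, choroid plexus and striatal neuron sums varied widely over the cortex libraries, with unlike medians but overlapping ranges in the genotypes. Choroid plexus markers summed to 8.41 to 1250 CPM (median 294) in Mbd5+/GT and 20.5 to 241 (median 64.6) in WT cortex, and striatal neuron markers to 180 to 853 (median 386) and 113 to 1282 (median 856). The WT libraries with the lowest Fxyd7 (26.2 and 28.7 CPM) had the highest striatal sums (1282 and 1277 CPM). The Fxyd7 median over all libraries of a region was 52.0 CPM in striatum and 47.4 in cortex. The part of choroid plexus and striatal cells in the genotype values was not tested.

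Fxyd5 and Lgi4 lie in the same stretch of chromosome 7, Fxyd5 31 bases from Fxyd7 and Lgi4 2142 bases from Fxyd1. In cortex their log2 fold changes were 0.31 ± 0.07 (SE) and 0.21 ± 0.04, with adjusted p of 0.24 and 0.12 by edgeR with Benjamini-Hochberg adjustment.

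In striatum the Fxyd7 levels were 27.0, 52.0 and 94.4 CPM (lowest, median and highest) in Mbd5+/GT and 32.5, 51.7 and 70.8 in WT mice. The genotype log2 fold change of Fxyd7 was 0.16 ± 0.09 (SE), and that of Fxyd1 was -0.13 ± 0.09, both with unadjusted p over 0.05. Fxyd1 within litters differed by -0.33, 0.27 and -0.40. Fxyd6 (0.03 ± 0.14) and Fxyd2 (-0.01 ± 0.16) had standard errors larger than their fold changes.

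In cerebellum Fxyd2 and Fxyd6 had an unadjusted p under 0.05. Fxyd2 had 3 to 27 reads per library (0.08, 0.22 and 0.86 CPM as lowest, median and highest) in Mbd5+/GT and 1 to 16 reads (0.04, 0.14 and 0.47 CPM) in WT mice. The most reads in each genotype, 27 and 16, were those of mice A and B, and the genotypes overlapped. The log2 fold change was 0.90 ± 0.36 (SE), and 1.17 ± 0.43 without those libraries, at an adjusted p of 1.00 by edgeR with Benjamini-Hochberg adjustment in both. Fxyd6 ran from 52.4 through 81.1 to 101 CPM in Mbd5+/GT and from 64.4 through 85.6 to 130 in WT mice, with a log2 fold change of -0.16 ± 0.07 (SE), or -0.12 ± 0.06 without those libraries. For Fxyd7, group means of 11.1 ± 13.4 CPM (SD, n = 10) and 7.79 ± 4.20 (SD, n = 8) were carried by the same libraries, its medians were 6.79 and 6.83, and its log2 fold change was 0.15 ± 0.10 (SE).

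**Figure D5:**
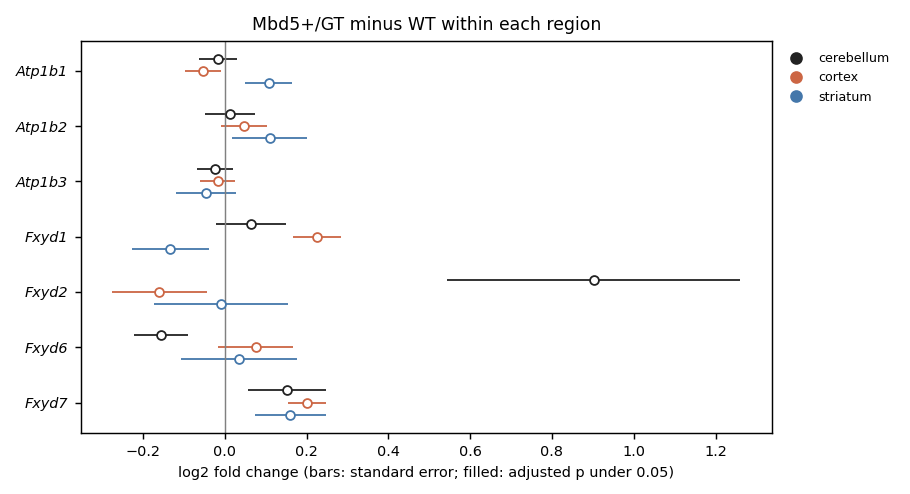
Log2 fold change of Mbd5+/GT over WT for each gene in each region, with standard errors. All points are open, since no adjusted p was under 0.05, and the point farthest from 0 is Fxyd2 in cerebellum (0.90), which had at most 27 reads in a library.

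An interaction term asked if the genotype effect was unequal between regions. None of the 7 genes passed an adjusted p of 0.05 for any pair of regions by edgeR, as for 0% of all genes tested, and DESeq2 gave 0 of 7 too. At an unadjusted p under 0.05 there was 1 of 7 (6.27% of all genes), Fxyd2, with log2 differences of 1.13 ± 0.48 (SE) between cerebellum and cortex and 1.00 ± 0.48 between cerebellum and striatum. These rest on 1 to 27 reads per cerebellum library, and the second was 0.94 ± 0.49 with the mouse as a paired term and 0.77 ± 0.48 without the repeated libraries, with unadjusted p over 0.05 in both. For Fxyd1, whose fold changes were 0.23 in cortex and -0.13 in striatum, the difference was 0.41 ± 0.21 (SE, adjusted p = 0.99, edgeR with Benjamini-Hochberg adjustment).

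Genes that work beside the β and FXYD proteins were followed through lists of 38 genes. None had an adjusted p under 0.05 for genotype in any region by edgeR with Benjamini-Hochberg adjustment, and at an unadjusted p under 0.05 there was 1 of 33 tested in cerebellum, 4 of 33 in cortex and 3 of 34 in striatum (2.75%, 8.47% and 7.44% of all genes). Between regions, the counts over these lists are at an adjusted p under 0.05 by edgeR with Benjamini-Hochberg adjustment, which 68.9% of all genes passed in cerebellum against cortex, 75.2% in cerebellum against striatum and 58.9% in cortex against striatum. The lists together had 10 higher and 13 lower, 16 higher and 13 lower, and 15 higher and 5 lower of 34 tested in these contrasts. Of the 4 catalytic α subunit genes 3 were expressed above the filter. In cerebellum 1 of them was higher than in cortex and 2 were higher than in striatum, 1 was higher in cortex than in striatum, and none was lower in any of these contrasts. Atp1b4, a β form found in muscle, and Fxyd4 stayed under 0.18 CPM in every library, and Fxyd3 under 1. Fxyd5 (dysadherin) resembled Fxyd7 in direction, with 7.30 ± 1.498 CPM (SD, n = 18) in cerebellum, 23.2 ± 5.0 in cortex and 25.2 ± 9.3 in striatum.

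Transporters that draw on the sodium gradient were found on both sides of each contrast. Of 15 sodium-gradient transporters, 4 were higher and 7 lower in cerebellum than in cortex, 7 higher and 5 lower in cerebellum than in striatum, and 8 higher and 2 lower in cortex than in striatum. Slc1a2, the main glial glutamate transporter, averaged 962 ± 377 CPM (SD, n = 18) in cerebellum and 3673 ± 587 in cortex (log2 -1.98 ± 0.12 SE). Slc8a1, a sodium-calcium exchanger, and Slc4a7, a sodium-bicarbonate cotransporter, were higher in cortex than in striatum by 1.16 ± 0.23 and 1.06 ± 0.15 on the log2 scale.

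Among 5 calcium pumps, cerebellum had more of 2 and less of 2 than cortex, and more of 3 and less of 2 than striatum. Cortex had more of 4 than striatum. Atp2b4, a plasma membrane calcium pump, was lower in cerebellum than in cortex (51.8 ± 17.4 and 220 ± 65 CPM, SD, n = 18), and Atp2b3, another, was higher in cerebellum than in striatum (217 ± 92 and 50.7 ± 16.7 CPM). Of the 3 potassium buffering genes, 2 were higher in cerebellum than in cortex, 3 higher in cerebellum than in striatum and 2 higher in cortex than in striatum. The water channel of astrocyte endfeet, Aqp4, was at 435 ± 101 CPM (SD, n = 18) in cerebellum and 91.2 ± 30.8 in striatum, and the potassium channel Kcnj16 at 34.6 ± 4.5 in cortex and 17.2 ± 6.7 in striatum.

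Of 3 proton-potassium pump genes 2 passed the filter, and both were lower in cerebellum than in cortex and striatum. Atp12a, the nongastric form, had 0 to 0.10 CPM in cerebellum, 0 to 0.30 in cortex and 0.03 to 0.38 in striatum. Of the 4 Nkain genes, whose proteins bind β1, 1 was higher and 1 lower in cerebellum than in cortex, 1 higher and 3 lower in cerebellum than in striatum, and 3 lower in cortex than in striatum.

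The 7 genes did not all vary together from library to library, though single pairs did. After the 6 group means were taken off, Pearson's r of log2 CPM over 54 libraries was highest for Atp1b3 and Fxyd1 (0.67), followed by Fxyd2 and Fxyd7 (0.41) and by Atp1b1 and Fxyd7 (0.36). The last 2 values were 0.14 and 0.09 over the 47 libraries left without the low-marker ones. Atp1b1 and Atp1b2 had an r of 0.30, and the neighbours Fxyd1 and Fxyd7 one of 0.09, or 0.40 over those 47 libraries. Fxyd6 and Fxyd7 went from 0.08 to 0.45 in the same way, and Atp1b3 and Fxyd1 to 0.78. These values describe libraries that share mice, depth and dissection.

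Outside the 7, among 11659 protein-coding genes with a mean of at least 5 CPM, the closest patterns to Atp1b1 were those of Idh3a (r = 0.85), Dlat (0.83) and Slc19a2 (0.82), of which Idh3a and Dlat encode mitochondrial enzymes. Gatad2a (0.71) and Tril (0.70) were among the genes closest to Atp1b2, and Atp1b3 was most like Rnf7, Cript and Bcap31 (0.85, 0.83 and 0.82). Tmem208, Bad and Mdk came closest to Fxyd1 (0.87, 0.85 and 0.85). For Fxyd2 they were Ptpn5, Shb and Tdrp (0.76, 0.76 and 0.76), which fell to 0.60, 0.61 and 0.54 without the low-marker libraries. Cnrip1, Camk1 and Stmn2 were closest to Fxyd6 (0.81, 0.81 and 0.79), and Dact3, Igfbp4 and Shisa4 to Fxyd7 (0.93, 0.91 and 0.90). With the group means kept, so that regional differences count, the closest genes were Idh3a for Atp1b1 (0.92), Itga3 for Atp1b2 (0.98), Fnta for Atp1b3 (0.95), Tmem208 for Fxyd1 (0.96), Plcxd1 for Fxyd2 (0.97), Commd7 for Fxyd6 (0.74) and Dact3 for Fxyd7 (0.98).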

How the data were processed

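RNA-seq read counts of cerebellum, cortex and striatum from 10 Mbd5+/GT and 8 WT mice were used. The deposited values are raw counts per gene, which the authors made by aligning reads with STAR 2.4.2 to GRCm38 with counting per Ensembl gene in the same run (GeneCounts), after quality checks with FastQC 0.10.1 (versions per the submitters' processing notes). Groups, litters and mouse numbers were taken from the sample labels, and mice are the replicates. The table also held 92 spike-in rows, at 0.0207% to 0.728% of a library, which were left out.

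A gene entered the tests if at least 8 libraries had over 4 counts, under the quasi-likelihood model of edgeR 4.0.16 in R 4.3.3 with TMM normalization, robust dispersions and p-values adjusted by Benjamini-Hochberg across every gene in the fit. Genotype was tested per region with 2 surrogate variables in cerebellum and 4 in cortex and striatum (sva 3.50.0). Regions and interactions were tested over 54 libraries with 6 group means. DESeq2 1.42.0, RLE scaling, no low-count filter, litter and sex terms, subsets of libraries and a mouse term were the alternatives. Leaving out the 7 low-marker libraries was chosen after seeing the data. The 7 genes, the gene lists and the rule for named genes (all 7, the 3 list genes with the largest change per region contrast, and the genes most alike in log2 CPM with a prior count of 2) were chosen with earlier results of these data known. CPM and RPKM were computed here from TMM-scaled library sizes and annotated exon lengths.

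Mouse numbers pair the regions, since they name the animal dissected. Deviations from group means correlated within a mouse with medians of 0.25 (cerebellum and cortex), 0.15 (cortex and striatum) and 0.10 (cerebellum and striatum). Across 219 pairs of libraries of the same group the lowest chi-square per degree of freedom was 8.85, so none was counted as a duplicate. The rule selected no α subunit gene, so that list is given by its counts. 1 gene that this rule selected is not reported here.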

Additional observations from a re-analysis of the deposited data

Results flagged for a closer look

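In 42 sets of libraries (7 genes in 6 groups), 5 held a sample whose gap to its nearest neighbour was larger than Dixon's 95% value, where chance gives about 1 in 20. All 5 were the highest library of a cerebellum group, and all came from 2 mice, A (Mbd5+/GT) and B (WT). In the library of mouse A, Atp1b1 was 1959 CPM (next 1591) and Fxyd7 was 48.6 CPM (next 10.95). In that of mouse B, Atp1b1 was 2041 CPM (next 1477), Fxyd7 was 17.5 CPM (next 8.60) and Fxyd2 was 0.47 CPM (next 0.21). These are the cerebellum libraries with the lowest granule cell markers and the highest Hox gene sums.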

How the results depend on the processing

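Among the fold changes between regions that passed an adjusted p of 0.05, none changed direction under the alternatives run. For genotype, 135 of 147 alternative values kept the direction and the side of the threshold, and between regions 162 of 168 did. Fxyd7 in cortex passed with DESeq2 only, so that 1 member instead of 0 was called there, with no DESeq2 share of all genes to set beside it. Between regions, Fxyd6 lost its call in cortex against striatum with the replicate block of mouse (-0.31) and without the low-marker libraries (-0.12), and in cerebellum against striatum without them (-0.15). Fxyd1 lost its call there in WT libraries (0.30). The replicate block changed no other call between regions.

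The counts at an unadjusted p under 0.05 moved more. Shares of all genes are given for the main settings only, so the counts under the alternatives have no such share beside them. In cerebellum 2 became 0 without surrogate variables and 1 each with litter and sex terms, without litter 2 and without the low-marker libraries. In cortex 2 became 0 without surrogate variables and with litter and sex terms, 1 without a filter on low counts and 3 without litter 2. In striatum 0 became 1 without litter 2 (Atp1b2). For the interaction, 1 became 0 in cerebellum against striatum with the replicate block and without the repeated libraries, and 0 became 1 in cortex against striatum with the replicate block, without a filter and without litter 2.

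Small fold changes reversed. Without the low-marker libraries those of Atp1b1 (0.00098) and Atp1b2 (-0.018) in cerebellum and of Atp1b3 (0.0016) and Fxyd6 (-0.13) in striatum did. Without surrogate variables, so did Atp1b3 in cerebellum (0.0075) and Fxyd6 in striatum (-0.17). With litter and sex terms, Fxyd6 reversed in cortex (-0.019) and striatum (-0.079). Without litter 2, Atp1b3 (0.069) and Fxyd1 (0.051) reversed in striatum, as did Fxyd2 without the repeated libraries (0.0101). Between cerebellum and cortex, Atp1b1 reversed without a filter (0.0059) and Fxyd6 in WT libraries (0.018).

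Interactions reversed for Atp1b3 (-0.051, without litter 2) and Fxyd7 (-0.044 with the replicate block, -0.13 without the low-marker libraries) between cerebellum and cortex. Between cerebellum and striatum they did for Fxyd6 (-0.098 without the low-marker libraries and -0.096 without litter 2) and Fxyd7 (-0.19, without the low-marker libraries). Between cortex and striatum they did for Atp1b3 (-0.032 without the low-marker and -0.019 without the repeated libraries), Fxyd2 (0.36, without litter 2) and Fxyd7 (-0.057, without the low-marker libraries). The causes were not tested. RLE in place of TMM moved the median of all genes by at most 0.03 on the log2 scale in size. Fxyd2 in cerebellum, at 1 to 27 reads, is limited by depth.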
